A study of Rattus norvegicus with 6 samples.

Results

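The mRNAs of collagens and of enzymes and chaperones that process collagen were examined in neonatal rat ventricular cardiomyocytes (NRVCs) cultured with or without C3a, the small fragment that is released when complement C3 is cleaved. The 10 genes were listed by name and by role. Fibrillar collagens were represented by Col1a1, Col1a2, Col3a1, Col5a1 and Col5a2, basement membrane collagens by Col4a1, Col4a2 and Col18a1, and processing by Lox and Serpinh1. A probe was assigned to a gene through its accession, which matched the rat gene table for 7 of the 10 genes with 10 probes in all, out of 16575 gene symbols and 45572 probes in the whole series. Col5a2, Col4a2 and Lox were not analysed here because no probe was matched to them by accession. Where a gene had more than 1 probe, its brightest probe was used as the main value and the dimmer probe was given beside it.

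Collagen chains assemble into a helix of intertwined strands in the endoplasmic reticulum, after hydroxylation of their proline and lysine residues, and Serpinh1 (Hsp47) is the chaperone that binds the folded procollagen on its way to the Golgi. After export, the propeptides of fibrillar collagens are cleaved and the fibrils are crosslinked by Lox, whereas type IV collagen forms a sheet-like network that underlies cells. In the heart, types I and III make up most of the interstitial scaffold and are made mainly by fibroblasts, whereas cardiomyocytes and endothelial cells are surrounded by a basement membrane that contains type IV collagen.

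The cells were prepared from the ventricles of 8 to 10 Sprague-Dawley rats that were 1 to 2 days old, by enzymatic dissociation followed by preplating, a step that removes cells that attach quickly, such as fibroblasts. They were grown on collagen-coated glass in a medium described in the sample records as serum-free, and the methods of the study add a short starvation in low serum. The control group received no C3a, and the C3a group received recombinant C3a at 0.5 µg/ml for 12 h, with 3 arrays per group. The records do not say whether arrays of a group came from separate cultures, so p-values measure only the spread between these arrays, which may be technical. RNA was taken from whole cultures, so that fewer cells of a type and less RNA per cell cannot be told apart.

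Each sample was hybridised to 1 array of a single slide with Cy3 as the only dye, and the groups took separate lines of array positions on it, so position and treatment cannot be told apart. Control replicate 1 stood apart: its median local background was 47 intensity units, against 23 to 24 on the other arrays, and 38.6% of its probes were well above background, against 53.7% to 57.3%. All 10 probes of the 7 genes were well above background on all 6 arrays and no spot was saturated. Levels are given as log2 intensity after subtraction of the array's own 75th percentile. Probes differ in how brightly they label, so no level of a gene was set against that of another. The sums of marker levels given below are the exception, and they depend on that brightness.

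Promoter sequence could be read for 7 of the 10 genes from RefSeq (GRCr8), counting as the promoter the 250 bases before the annotated start. Col1a1, Col3a1 and Lox had no sequence there and were not searched, whereas Col5a2 and Col4a2 were. The stretches below belong to Col4a1 and Serpinh1, which had the largest differences between C3a and control of the 7 genes measured, although neither passed the test. Col1a2 is shown because, of the fibrillar collagens read (Col1a2, Col5a1 and Col5a2), it alone contains a TATA-like element. Col4a1 and Col4a2 are transcribed away from each other, and the 76 bases between their annotated starts (chr16:84885521-84885596, plus strand) are printed whole. For Serpinh1 the 100 bases directly before the start are shown (chr1:163062977-163063076, minus strand), and for Col1a2 the far 100 of the 250 bases before the start (chr4:33518307-33518406, plus strand). Capitals mark GGGCGG (read here on the other strand) in the first, TTCNNGAA in the second, and CCAAT (on the other strand) and TATAAA in the third.
Col4a1-Col4a2: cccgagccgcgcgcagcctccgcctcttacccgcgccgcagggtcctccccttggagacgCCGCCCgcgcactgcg
Serpinh1: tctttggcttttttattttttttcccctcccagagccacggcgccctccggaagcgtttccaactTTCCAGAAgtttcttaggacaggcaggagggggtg
Col1a2: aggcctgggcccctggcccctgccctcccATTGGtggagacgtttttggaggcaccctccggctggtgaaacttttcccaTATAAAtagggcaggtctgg

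The 4 motifs were searched on both strands without overlap between different motifs in the stretches shown, and TTCNNGAA reads the same on both strands. The interval between Col4a1 and Col4a2 was 78.95% G and C and held 1 GGGCGG, the core of the Sp1 element, 16 bases before the Col4a1 start. TTCNNGAA, the letters of paired units in a heat shock element, lay 35 bases before the Serpinh1 start and was also present in the windows of Col5a1 and Col18a1. It was found in 7.48% of all 33465 promoter windows of the same length. TATAAA was present in the window of Col1a2, 170 bases before the annotated start, and in none of the other 6 windows read. It was found in 12.9% of all windows. CCAAT occurred in the windows of Col1a2, Col4a1 and Col4a2 and in 34.0% of all windows, and GGGCGG in those of Col5a1, Col4a1, Col4a2, Col18a1 and Serpinh1 and in 30.5% of all windows. These matches are a description of the letters and say nothing of binding.

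To ask whether C3a altered collagen expression in NRVCs, the C3a arrays were compared with the control arrays. None of the 7 genes passed the test. The log2 difference, C3a minus control, lay between -0.037 for Col3a1 and 0.15 for Col4a1. Col4a1, Serpinh1 and the brightest probe of Col5a1 were higher with C3a at each of the 3 replicate numbers, whereas Col1a1, Col1a2, Col3a1 and Col18a1 were higher at some numbers and lower at others. Each gene is described below by its role.

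Col1a1 encodes the main chain of type I collagen, the most abundant collagen of scar tissue. Its level in the controls was 5.52, 5.19 and 5.36 for replicates 1 to 3, and with C3a it was 5.53, 5.27 and 5.33. The groups overlapped over nearly their whole range, and replicate 1 was highest and replicate 2 lowest in both. The means were 5.36 ± 0.16 (SD, n = 3) and 5.38 ± 0.13 (SD, n = 3), a log2 difference of 0.024 with a standard error of 0.12. The 95% interval ran from -0.27 to 0.32, which is 0.829-fold to 1.25-fold, with an adjusted p of 0.959 (limma, Benjamini-Hochberg). The dimmer Col1a1 probe read 5.26, 4.75 and 5.12 in the controls and 5.27, 4.99 and 5.13 with C3a, a difference of 0.088 with a standard error of 0.15 (limma adjusted p = 0.869). On this probe too the groups overlapped, and control replicate 2 was the lowest array.

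Col1a2 encodes the partner chain of Col1a1 in type I collagen. The control arrays read 5.81, 5.70 and 5.66 and the C3a arrays 5.86, 5.64 and 5.70. A C3a array was the highest and another C3a array the lowest of all 6. The difference was 0.011 with a standard error of 0.10 and a 95% interval from -0.23 to 0.25 (limma adjusted p = 0.978). Col1a1 and Col1a2 were each measured on 1 spot per probe and array.

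Col3a1 encodes the chain of type III collagen, which forms fibrils together with type I collagen in compliant tissues. The controls read 2.85, 2.86 and 2.67 and the C3a arrays 2.84, 2.62 and 2.81. The replicates went in different ways, with C3a minus control at -0.012, -0.24 and 0.14 for replicates 1, 2 and 3. The fitted difference was -0.037 with a standard error of 0.11, and its 95% interval from -0.29 to 0.22 (limma adjusted p = 0.924). Its 10 spots per array had an SD of 0.034 to 0.051 on the log2 scale, so the spread among arrays was larger than the spread among spots.

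Col5a1 encodes a chain of type V collagen, which starts fibrils and limits their diameter. The brightest Col5a1 probe read 3.36, 3.22 and 3.24 in the controls and 3.37, 3.29 and 3.28 with C3a. The groups overlapped, although C3a was slightly higher at each replicate number, by 0.012, 0.073 and 0.036. The difference was 0.040 with a standard error of 0.092 and a 95% interval from -0.18 to 0.26 (limma adjusted p = 0.903). A dimmer Col5a1 probe, designed on another accession, read 0.89, 1.00 and 0.86 in the controls and 0.74, 0.97 and 0.76 with C3a. This probe was lower with C3a at each of the 3 numbers, with a difference of -0.098 and a standard error of 0.11 (limma adjusted p = 0.790). The Col5a1 probes therefore differed in sign, and neither passed the test.

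**Figure D1:**
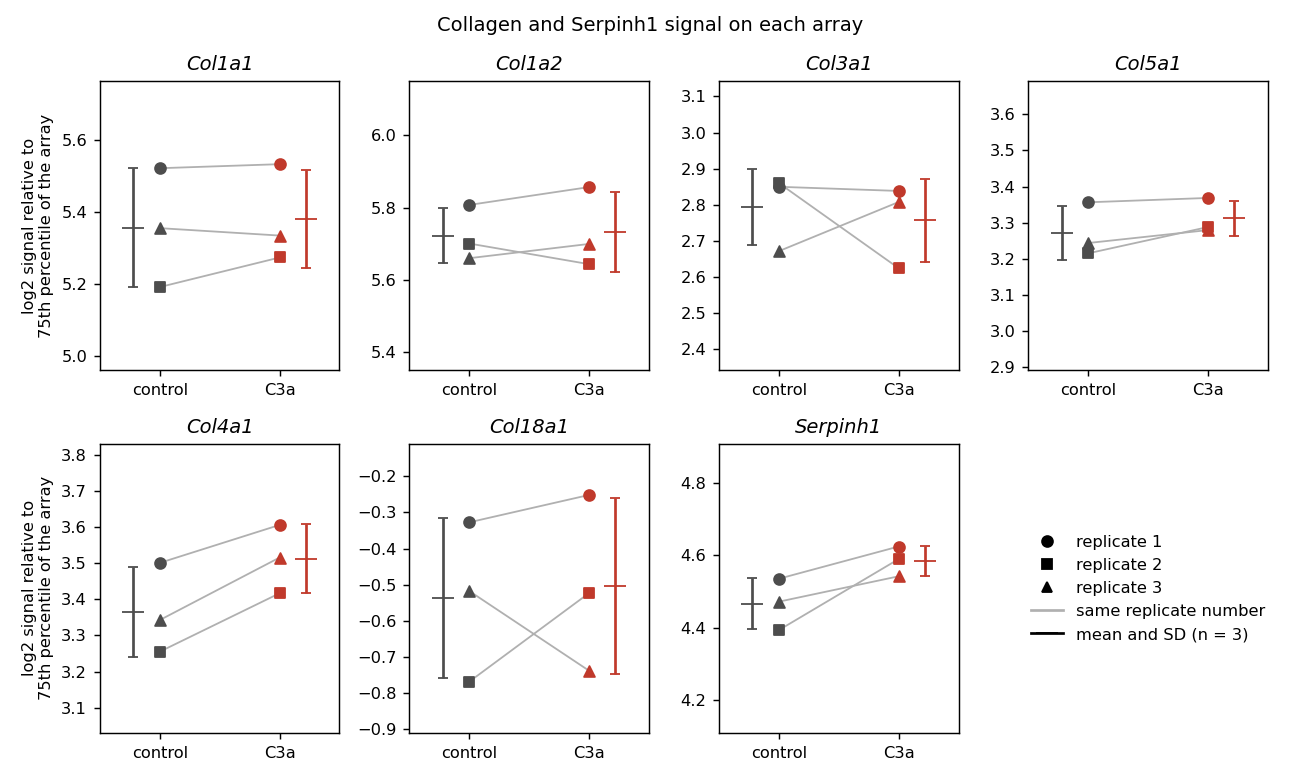
Level of the brightest probe of each of the 7 measured genes on each array, as log2 signal minus the 75th percentile of that array (vertical axes, not to be compared between genes), for control (grey) and C3a (red). Symbols mark the replicate number, lines join arrays of the same number, and bars beside them give mean and SD (n = 3). The groups overlap for 6 of the 7 genes and are apart for Serpinh1.

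Col4a1 encodes the main chain of type IV collagen, the network-forming collagen of basement membranes. The controls read 3.50, 3.26 and 3.34 and the C3a arrays 3.61, 3.42 and 3.52. The C3a arrays were the higher at each replicate number, by 0.10, 0.16 and 0.17, but C3a replicate 2 lay below control replicate 1, so the groups overlapped. The means were 3.37 ± 0.12 (SD, n = 3) and 3.51 ± 0.095 (SD, n = 3), a difference of 0.15 with a standard error of 0.11. This is 1.11-fold, with a 95% interval from 0.928-fold to 1.32-fold, and it did not pass the test (limma adjusted p = 0.744). Of all probes tested, 25.2% were higher with C3a at all 3 numbers, so such a run of signs was common on these arrays.

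Col18a1 encodes type XVIII collagen, a basement membrane proteoglycan whose cleaved end is endostatin. The controls read -0.33, -0.77 and -0.52 and the C3a arrays -0.25, -0.52 and -0.74. Col18a1 had the widest spread among arrays of the 7 genes, with an SD of 0.22 in the controls and 0.24 with C3a (n = 3 each). The difference changed sign among the numbers (0.076, 0.25 and -0.22). It was 0.033 in the fit with a standard error of 0.17 and a 95% interval from -0.36 to 0.42 (limma adjusted p = 0.958). Its linear intensity was 124 to 217 units, and it was measured on 2 spots per array.

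Serpinh1, the collagen chaperone, was the 1 gene of the 7 whose groups did not overlap. The controls read 4.54, 4.39 and 4.47 and the C3a arrays 4.62, 4.59 and 4.54. The lowest C3a array stood just above the highest control. The means were 4.47 ± 0.071 (SD, n = 3) and 4.59 ± 0.041 (SD, n = 3), a difference of 0.12 with a standard error of 0.091. This is 1.09-fold with a 95% interval from 0.935-fold to 1.26-fold (limma adjusted p = 0.748). An exact two-sided permutation test gave p = 0.1, the smallest that 3 arrays against 3 can give. The dimmer Serpinh1 probe did not show the separation. It read 3.54, 3.43 and 3.42 in the controls and 3.54, 3.56 and 3.38 with C3a, a difference of 0.028 (limma adjusted p = 0.938).

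**Figure D2:**
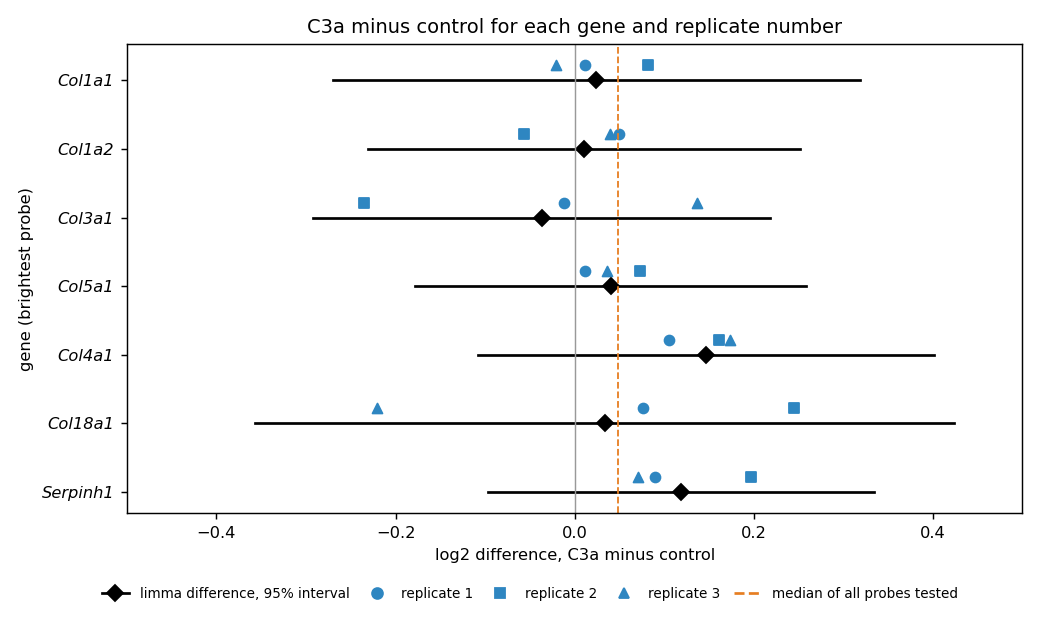
Log2 difference, C3a minus control, of the brightest probe of each gene (horizontal axis) with its limma 95% interval (diamond and line) and the difference at each replicate number (blue symbols). The dashed line is the median of all probes tested, 0.048, and the interval of each of the 7 genes includes 0.

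By role, the median log2 difference was 0.017 over the 4 fibrillar collagens measured and 0.090 over the 2 basement membrane collagens, and Serpinh1 alone stood for processing at 0.12. Over all 7 genes the median was 0.033, beside 0.048 over all 23438 probes tested and 0.036 over the 10390 genes with a tested brightest probe. At a limma adjusted p under 0.05, 0 of the 7 genes were called, against 0% of all probes tested. At an unadjusted p under 0.05, 0 of the 7 were called by limma and also 0 by the equal-variance test that the methods name, against 5.82% of all probes by limma. Groups that did not overlap with C3a higher were seen for 1 of the 7 genes and for 8.04% of all probes, with C3a lower for 0 of the 7 and for 4.46%, and in either direction for 12.5% of all probes. The intervals of the 7 genes lay between 0.781-fold and 1.34-fold.

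These directions depended on how the arrays were scaled. The differences of Col1a1, Col1a2 and Col5a1 turned negative under quantile normalization (-0.078, -0.10 and -0.0092), while that of Col4a1 was 0.10 there. Without any normalization all 7 were negative, as was the median of all probes tested (-0.28). Relative to that median Col4a1 stood at 0.098 and Serpinh1 at 0.070, and the other 5 genes between -0.085 and -0.0082. These equal the main setting by arithmetic, because the settings differ only by a constant per array. Relative to its own median, quantile normalization gave 0.078 for Col4a1, 0.022 for Serpinh1 and -0.12 to 0.011 for the other 5.

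The levels were also compared by replicate number. In both groups the array numbered 1 was the highest for Col1a1, Col1a2, Col5a1, Col4a1, Col18a1 and Serpinh1. For Col3a1 the highest array was replicate 2 among the controls and replicate 1 with C3a. The same number was thus highest in both groups for 6 of the 7 genes, against 49.7% of all probes. The means of the 3 numbers ranged over 0.29 for Col1a1 and 0.36 for Col18a1 on the log2 scale, 0.22 for Col4a1, 0.16 for Col1a2, 0.11 for Col5a1, 0.10 for Col3a1 and 0.088 for Serpinh1. This range exceeded the difference between C3a and control for every gene of the 7 but Serpinh1, and for 81.2% of all probes, so the 7 genes were like other probes in this. The range spans 3 means of 2 arrays each, whereas the difference sets 2 means of 3 arrays each against each other, so the range tends to be the wider by construction. With the replicate number as a block the standard error of Col4a1 was 0.086 and its limma adjusted p 0.492, and none of the 7 was called.

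Ratios of probes within an array do not depend on scaling by a percentile. They were formed for all 21 pairs of the 7 genes, and the pairs described were chosen after their values were seen. The size of such a ratio says nothing of relative levels, only its shift between groups does. In 4 of the 21 pairs the C3a arrays lay wholly above the controls, and 3 of these 4 had Col4a1 over a fibrillar collagen. Col4a1 and Serpinh1, the genes with the largest differences, were set on top in their pairs, so the direction was set by these same data. Col4a1 over Col1a1 was -2.02, -1.94 and -2.01 in the controls and -1.93, -1.86 and -1.82 with C3a, a log2 shift of 0.12. Col4a1 over Col1a2 was -2.31, -2.45 and -2.32 in the controls and -2.25, -2.23 and -2.18 with C3a, a shift of 0.14. The third, Col4a1 over Col3a1, was 0.65, 0.39 and 0.67 in the controls and 0.77, 0.79 and 0.71 with C3a, a shift of 0.18 in which control replicate 2 stood well below the rest.

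The fourth pair was Serpinh1 over Col5a1, at 1.18, 1.18 and 1.23 in the controls and 1.26, 1.30 and 1.26 with C3a, a shift of 0.078. These ratios share probes and are not independent of each other. Of all other probes tested, 6.14% had a ratio over Col1a1 that was higher on all C3a arrays, 5.14% over Col1a2, 5.18% over Col3a1 and 4.88% over Col5a1. These shares count 1 direction only, whereas the direction of the pairs followed the data, and the larger share in either direction was not taken. With the dimmer Col1a1 probe, an alternative also chosen after seeing the data, the Col4a1 ratio overlapped between groups, with a shift of 0.059. In alternatives added in the same way, the dimmer Serpinh1 probe over Col5a1 overlapped with a shift of -0.012, and Serpinh1 over the dimmer Col5a1 probe overlapped with a shift of 0.22. The ratio of Col1a1 to Col1a2, the partner chains of type I collagen, shifted by 0.014, and its arrays overlapped. No p under 0.1 is possible for a single ratio with 3 arrays against 3.

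**Figure D3:**
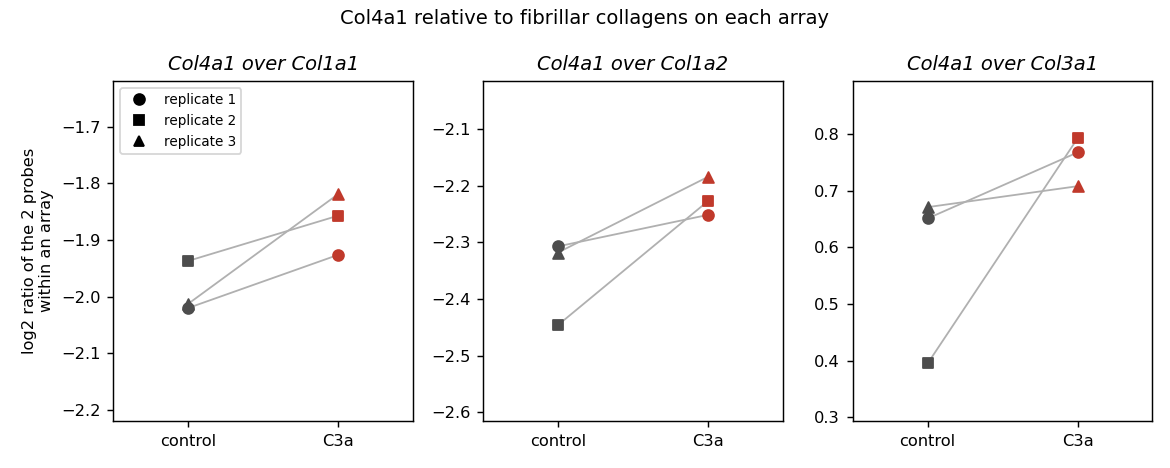
Log2 ratio of the Col4a1 probe to the probes of Col1a1, Col1a2 and Col3a1 on the same array (vertical axes) for control (grey) and C3a (red). Symbols mark replicate numbers and lines join arrays of the same number; in each panel all 3 C3a arrays lie above all 3 controls, with shifts of 0.12, 0.14 and 0.18.

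The collagen pathway around these genes was described with 8 lists of 106 further genes, of which 73 had a probe and 63 could be tested. None of the 63 passed the adjusted threshold in limma, with adjusted p of 0.743 or more. Before adjustment, a limma p under 0.05 was reached by 0 genes that were higher and 4 that were lower with C3a, or 6.35% of the 63 beside 5.82% of all probes. Their median log2 difference was 0.028, and 38 of the 63 were above 0, beside 60.6% of all genes with a tested brightest probe.

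The 4 genes had the following values, on probes that were not well above background on control replicate 1. Fkbp14, a prolyl isomerase of the endoplasmic reticulum that folds collagen, read -1.997, -1.87 and -1.36 in the controls and -2.54, -2.30 and -2.40 with C3a, a difference of -0.67 (limma adjusted p = 0.743). Col14a1, a collagen that lies on the surface of fibrils, read -2.14, -2.30 and -2.40 in the controls and -2.69, -2.69 and -3.08 with C3a, a difference of -0.55 (limma adjusted p = 0.743). For these genes and Col15a1 every C3a array was below every control, as for 4.46% of all probes. Col15a1, a multiplexin related to Col18a1, differed by -0.37 (limma adjusted p = 0.743). Lum, the proteoglycan lumican that spaces fibrils, differed by -0.54 (limma adjusted p = 0.743), with overlapping groups. Over the 63 genes, 5 had all C3a arrays below the controls and 2 had them above, which is 11.1% in either direction beside 12.5% of all probes.

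Of the 63 genes, 12 were not well above background on control replicate 1, and all 4 of these genes were among them, whereas 0 of the other 51 had an unadjusted p under 0.05. Without control replicate 1, an alternative chosen after seeing the data, Fkbp14 (-0.80) and Col14a1 (-0.47) still had an unadjusted p under 0.05 in limma, while Lum (-0.59) and Col15a1 (-0.27) did not. With normexp background correction all 4 differences were smaller by more than 1.5 times. They were -0.40 for Fkbp14, -0.24 for Col14a1, -0.18 for Lum and -0.096 for Col15a1. An offset of 50 is added to the signal there, which shrinks log2 differences of dim probes by construction. The smaller sizes therefore cannot show the part of the background. Fkbp14 and Col14a1 kept an unadjusted p under 0.05 in limma, and that of Fkbp14 was lower than in the main fit. Lum and Col15a1 no longer had an unadjusted p under 0.05. Under quantile normalization Lum (-0.49) no longer had an unadjusted p under 0.05. With the replicate block the 4 genes had an unadjusted limma p of 0.0021 to 0.0080 and an adjusted p of 0.22 to 0.24. The part of the background of control replicate 1 in these differences was not tested further.

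The lists were spread around 0, and their counts above 0 stand beside 60.6% of all genes with a tested brightest probe. The 17 genes tested for modification and folding inside the cell, such as hydroxylases of proline and lysine, had a median of 0.022, with 9 above 0. The 7 genes of procollagen export had a median of 0.0082, and the gene of that list with the largest difference was Sec13, a coat protein of export vesicles, at -0.21 (limma adjusted p = 0.743). The 9 genes of cleavage and crosslinking outside the cell had a median of 0.079, with 6 above 0. Their largest difference was 0.30 for Tll2, a protease related to Bmp1 (limma adjusted p = 0.798). Its probe was well above background on 1 control array and on 3 C3a arrays, so it was kept through the C3a group alone. By replicate number its difference was -0.026, 0.90 and 0.030, and control replicate 2 was the lowest array at -4.57.

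Among the collagens outside the 10 genes, the 4 fibrillar ones tested had a median of -0.016, with the largest difference at -0.37 for Col11a2 (limma adjusted p = 0.782), the 2 of the basement membrane and multiplexin list had -0.11, and the 6 others had 0.015. The 11 fibril-organising proteoglycans and collagen receptors had a median of 0.060. The 7 partners of type IV collagen in the basement membrane, among them laminins, had a median of 0.039 and lay between -0.097 (Lamb2) and 0.094, with 0 at an unadjusted p under 0.05.

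**Figure D4:**
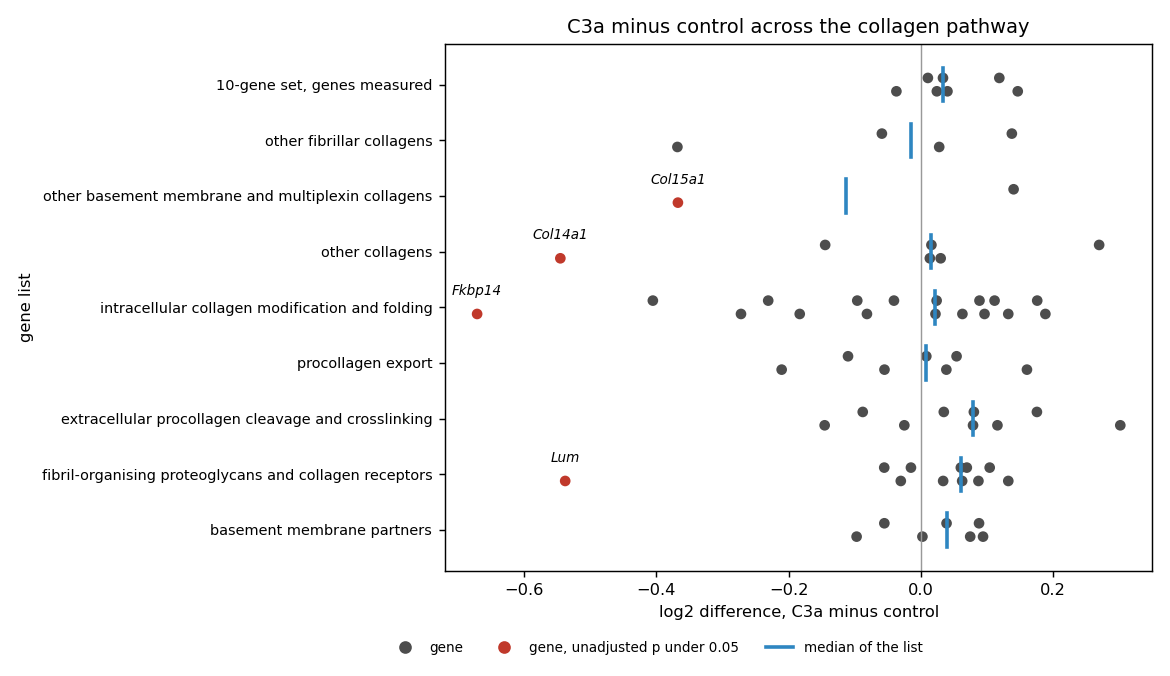
Log2 difference, C3a minus control, of each tested gene (points, horizontal axis) in the 10-gene set and in the 8 lists of the collagen pathway (rows), with the median of each list as a blue bar. The medians lie between -0.11 and 0.079, and the 4 red genes, all lower with C3a, are those with an unadjusted p under 0.05.

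Markers of the cell types that the cultures could hold were read beside the collagens. All 14 cardiomyocyte markers with a probe were well above background on all 6 arrays, as the labelled cell type would have, and had a median difference of 0.10 and summed levels of 5006 to 6339 in the controls and 6080 to 6774 with C3a. All 13 fibroblast markers with a probe could be tested, and 2 of the 13 were above 0, with a median of -0.069, whereas 62.3% of all probes were above 0. Thy1, Tcf21, Fbln1, Lum and Wt1 were well above background on only 2 of the 3 control arrays. They were kept through the C3a group alone, and of them Wt1 was above 0 and the others below. The summed level of the 13 fibroblast markers relative to the 75th percentile was 368 to 464 in the controls and 409 to 566 with C3a. S100a4, 1 of the 2 markers above 0, made up 92.2% to 95.9% of this sum. Without S100a4, left out after the data were seen, the sum was 23.0 to 28.7 in the controls and 19.3 to 23.2 with C3a. It was lower with C3a on average and the groups overlapped narrowly. The brightest markers left in it were Vim (control mean 3.57, difference -0.48) and Fn1 (control mean 3.33, difference -0.069). Such a sum follows its brightest markers, and the part of Vim in the lower sum was not tested. None of the 13 fibroblast markers passed the adjusted threshold in limma. At an unadjusted limma p under 0.05, 1 of the 13, Lum, was called, beside 5.82% of all probes. Lum, Dcn and Ddr2 are also in the pathway lists above, so the value of Lum is the same one given there. Of 9 endothelial markers with a probe 6 could be tested, and 4 of the 6 were above 0, with Tek (-0.23) and Erg (-0.075) below. The 6 had a median of 0.10 and summed levels of 34.0 to 46.7 and 43.0 to 54.4. Tie1, Emcn and Flt1 were too dim to be tested. Their control means were -3.38, -3.37 and -4.08, and their C3a means were lower, at -4.11, -3.57 and -4.58. The 10 markers of smooth muscle and pericytes had a median of 0.017 and summed levels of 104 to 124 and 105 to 122. Of 10 macrophage markers 5 could be tested, with a median of 0.063 and summed levels of 5.88 to 7.36 and 5.86 to 6.43, while Cd163, C1qa and Mrc1 were well above background on 0 arrays. The summed levels of each of these lists overlapped between groups, and the part of these cell types in the collagen values was not tested.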

How the data were processed

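Gene expression in NRVCs was measured on 6 arrays with 1 colour. Per the file headers, the deposited intensity of each spot was written by Agilent Feature Extraction 11.5.1.1, with background subtracted within the array and no scaling between arrays. The authors also deposited a log2 table made with GeneSpring; for 36614 probes it equalled log2 intensity minus the 75th percentile to within 0.0062 at the median of each array, and its column medians lay between -3.13 and -3.00. Flags in the deposited files are 0 or 1.

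The 4259 control spots and 330 to 393 outlier spots per array were left out and spots of a probe averaged. Probes well above background, in at least 50% of their spots, on all 3 arrays of a group were kept (23438). Symbols came from the RefSeq table (GRCr8), which named 46.3% of 45572 probes. limma 3.58.1 in R 4.3.3 (lmFit, eBayes, two-sided) was run with Benjamini-Hochberg adjustment over all kept probes, after testing on simulated data. The number of arrays limits the precision. Same-numbered arrays deviated together (r = 0.28, 0.32 and 0.31, other pairs -0.26 to -0.093), but the records give only the number. The main fit held the group alone, without the replicate number, so its standard errors, intervals and p-values do not use any pairing. The replicate number entered as a block only in an alternative. The 10 genes and the lists were chosen with earlier results of these data known. Every listed gene was named, with pathway genes at an unadjusted p under 0.05 or with the largest difference of a list. Alternatives were quantile normalization, no normalization, another percentile, normexp (offset 50, on the median signal), other filters, the authors' table, the replicate block, a variance trend, the methods' t-test, all probes of a gene, and each array left out. Figures were drawn with matplotlib 3.10.9.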

Additional observations from a re-analysis of the deposited data

How the results depend on the processing

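The 7 genes had 0 calls, adjusted or not, under all 17 alternatives. Over all probes, 0 were called in each but no normalization (4 lower). Unadjusted, 783 probes were higher and 581 lower; the replicate block gave 1832 and 1366, no normalization 41 and 2558, the percentile over probes above background on all arrays 565 and 725, normexp 682 and 700, the filter on all arrays 370 and 639, no filter 359 and 676, the variance trend 709 and 803, and the methods' t-test 752 and 356 (0 after Benjamini-Hochberg). Adding the replicate number as a block changed no call of the 7 genes: 0 were called and Col4a1 had an adjusted p of 0.492 (limma).

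Signs turned with scaling. Quantile normalization gave -0.078 for Col1a1, -0.10 for Col1a2 and -0.0092 for Col5a1, with medians of -0.074 for fibrillar collagens and 0.044 for processing. Normexp gave -0.083, -0.098 and -0.016, with medians of -0.075 and 0.040. The other percentile gave -0.0046 for Col1a1 and -0.018 for Col1a2, with a fibrillar median of -0.011. No normalization gave -0.30 for Col1a1, -0.31 for Col1a2, -0.29 for Col5a1, -0.18 for Col4a1, -0.29 for Col18a1 and -0.21 for Serpinh1, with medians of -0.31, -0.24 (basement membrane) and -0.21 (processing). The mean of all probes gave -0.029 for Col5a1 and a fibrillar median of -0.0091. The cause was not tested, except that no normalization shifts all probes and that the Col5a1 probes differ.

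Leaving out each array in turn, the difference ranged from -0.058 to 0.11 for Col1a1, -0.051 to 0.055 for Col1a2, -0.098 to 0.029 for Col3a1, 0.012 to 0.083 for Col5a1, 0.091 to 0.21 for Col4a1, -0.093 to 0.15 for Col18a1 and 0.082 to 0.15 for Serpinh1. The medians ranged from -0.051 to 0.068, 0.0036 to 0.18 and 0.082 to 0.15. Col1a1 and Col18a1 turned negative without control replicate 2 or C3a replicate 1, Col1a2 without these or control replicate 3, and Col3a1 turned positive without C3a replicate 2. The Col4a1 shift ranged over the 17 alternatives from 0.091 to 0.18 over Col1a1, 0.091 to 0.20 over Col1a2 and 0.095 to 0.23 over Col3a1. Alternatives that only rescale whole arrays, filter probes or change the test leave this shift at its main value by construction and do not test it. The probes of Fkbp14, Col14a1, Col15a1 and Lum were not well above background on control replicate 1.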

Other observations

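The genes whose pattern over the 6 arrays was most like that of 3 of the collagens were listed, out of 8555 genes with a brightest probe well above background on all arrays. The measure was Pearson's r over the 6 arrays, which share a slide, a background and replicate numbers, so r is a description of these arrays. With Col1a1 the highest were Dbf4 (r = 0.995), Pdcl3 (r = 0.995) and Cfap77 (r = 0.994), and 228 genes had r over 0.9. Col5a1 came 188th in that order (r = 0.91), Col1a2, the partner chain, 688th (r = 0.83) and Col3a1 4644th (r = 0.31). With Col4a1 the highest were C8h15orf39 (r = 0.997), Ptrhd1 (r = 0.990) and Fkbp9 (r = 0.989), and 364 genes had r over 0.9, with Col5a1 at r = 0.90 and Serpinh1 at r = 0.88. Col3a1 had 16 genes with r over 0.9, led by Fgfr2 (r = 0.962), and its r was 0.71 with Col1a2 and -0.19 with Serpinh1.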
